A study of Homo sapiens with 8 samples.

Results

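The response of ATM knockdown MDA-MB-231 cells to 5 Gy of ionising radiation was examined by single-cell RNA sequencing, 4 h after irradiation. MDA-MB-231 is a human triple-negative breast cancer line. All cells of the 2 libraries labelled as irradiated ATM knockdown and the 2 labelled as untreated ATM knockdown were taken, provided that a cell had at least 1000 detected genes and 5000 counts. This left 171 of the 363 cells kept in the 8 libraries of the study, from 186 knockdown cells before the filter. The irradiated group held 86 cells, 43 in each library, and the untreated group held 85 cells, 41 in library 1 and 44 in library 2. Both groups carried the ATM knockdown and were grown in DMEM with fetal bovine serum and penicillin-streptomycin, and only the irradiated group was exposed and then cultured on for 4 h. The remaining 4 libraries, 2 of irradiated and 2 of untreated wild-type (WT) cells of the same line, are used here to test whether the responses of the genotypes differed. The labels give neither the knockdown method nor whether the knockdown cells were a clone. Nor do they tell if paired libraries were grown as separate cultures, and the p-values therefore measure a spread between libraries that may be technical.

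ATM is the protein kinase that is recruited to DNA double-strand breaks and starts the checkpoint, repair and p53 responses to ionising radiation. It also links nuclear DNA damage to NF-κB through NEMO, the regulatory subunit of the IκB kinase complex. NF-κB dimers are held in the cytoplasm by IκB proteins, and once released they switch on chemokine, cytokine and survival genes together with their own inhibitors. MDA-MB-231 cells are known for high basal NF-κB activity and for secreting chemokines and colony-stimulating factors.

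Each cell was picked by hand, and its counts were summed with those of the other kept cells of its library, so a lower level can reflect fewer expressing cells or less RNA per cell, which cannot be told apart in the sums. The irradiated libraries held 19813882 and 19392992 counts in kept cells, and the untreated libraries held 15286467 and 17661327. A median of 7537 and 6900 genes was detected per irradiated cell, against 5874 and 6053 per untreated cell. The mitochondrial share of counts had medians of 10.5% and 10.7% in the irradiated libraries and 11.7% and 12.1% in the untreated libraries. All 15 cells left out, each with at most 658 genes, were knockdown cells. No cell name was shared between libraries. The WT libraries share a title suffix and the knockdown libraries another, so handling cannot be told apart from genotype. Levels are given as CPM, a gene's counts per 1e+06 counts of its library, for libraries 1 and 2 of each group in that order. They come from 3′ mRNA libraries and were not divided by transcript length, and the sources used here do not say whether reads or unique molecules were counted. Some of the genes given have uncertain counts. Those of ATM, IL6, THBS1, IRF1, MXD3, KIF20A, ZBED6CL, CCND1, NOP16, MDM2, PLK1, MRPS6 and IFIT1 overlap another coding gene in the annotation. Those of TNFSF10, RAB17, ACTG1, NAMPT, FOSL2, CCNB2, TIPIN, BBC3, DDIT4, SLC7A5, SLC4A7, PSG5, LIF, CDKN1A, RELA and TNFAIP3 overlap an antisense gene. Named pseudogenes are most numerous for ACTG1, HSPA8 and AKR1B1, with 20, 17 and 7.

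ATM itself (chr11:108222484-108369102) was measured first as a check of the labels. It stood at 13.0 and 14.0 CPM in irradiated and 13.8 and 33.0 CPM in untreated knockdown libraries, against 28.0 and 33.2 CPM in irradiated and 57.9 and 31.1 CPM in untreated WT libraries. Untreated knockdown library 2 therefore lay within the WT range, and 24.9% of its ATM counts came from its largest contributing cell. Over both treatments, ATM was lower in knockdown than in WT libraries by the log2 difference of -1.12 (adjusted p = 0.0168, edgeR quasi-likelihood test). This call was lost without untreated WT library 1, at -0.87 with an adjusted p of 0.0514, and on mean CPM per cell, at -0.52 with an adjusted p of 0.12. At a depth thinned to 80000 counts per cell, an ATM count was found in 30.2% and 42.5% of irradiated and 27.3% and 36.8% of untreated knockdown cells, against 57.6% and 48.8% of irradiated and 74.4% and 60.9% of untreated WT cells. All 4 knockdown shares thus lay below all 4 WT shares. Between irradiated and untreated knockdown libraries ATM differed by -0.78 on the log2 scale, which did not pass (adjusted p = 0.622). Markers of mesenchymal tumour cells summed to 8209 and 9495 CPM in irradiated and 9147 and 9336 CPM in untreated knockdown libraries. Basal epithelial markers summed to at most 12.0 CPM, and glial, neuronal and fibroblast markers to at most 17.7 CPM, in any knockdown library. Leukocyte markers summed to 629 and 458 CPM in irradiated and 499 and 482 CPM in untreated knockdown libraries. Nearly all of this sum was CD74, an antigen presentation chaperone that epithelial tumour cells can also make, at 614 and 434 CPM in irradiated and 484 and 470 CPM in untreated libraries. PTPRC, the leukocyte common antigen CD45, was at 0 in 3 of the 4 libraries.

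In irradiated knockdown cells 8 of 29 tested chemokine and cytokine genes fell relative to untreated knockdown cells, among them CXCL8, CXCL2, IL6 and CSF2. So did 2 of 16 feedback inhibitors of NF-κB, 3 of 25 survival and effector targets of NF-κB and 1 of 18 STAT3 targets. Of all 12456 genes tested, 24 fell (0.193% of those tested) and 4 rose (0.0321%) at an adjusted p under 0.05, so that 14 of the 24 belonged to these 4 lists. These lists were drawn up with earlier results of these data known, so the count describes them and does not test them. The median log2 change over all tested genes was 0.01, with quartiles of -0.33 and 0.33. In every one of the 28 genes both irradiated libraries lay outside the range of both untreated libraries, which also held for 19.1% of all tested genes in the downward and 20.4% in the upward direction. With a library left out the number of passing genes was higher throughout. It was 44 and 48 without irradiated knockdown library 1 or 2, 62 and 74 without untreated knockdown library 1 or 2, 83 and 78 without irradiated WT library 1 or 2, and 139 and 142 without untreated WT library 1 or 2. Of the 28 genes, 19 passed under each of the 18 alternative settings in which they were tested.

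**Figure D1:**
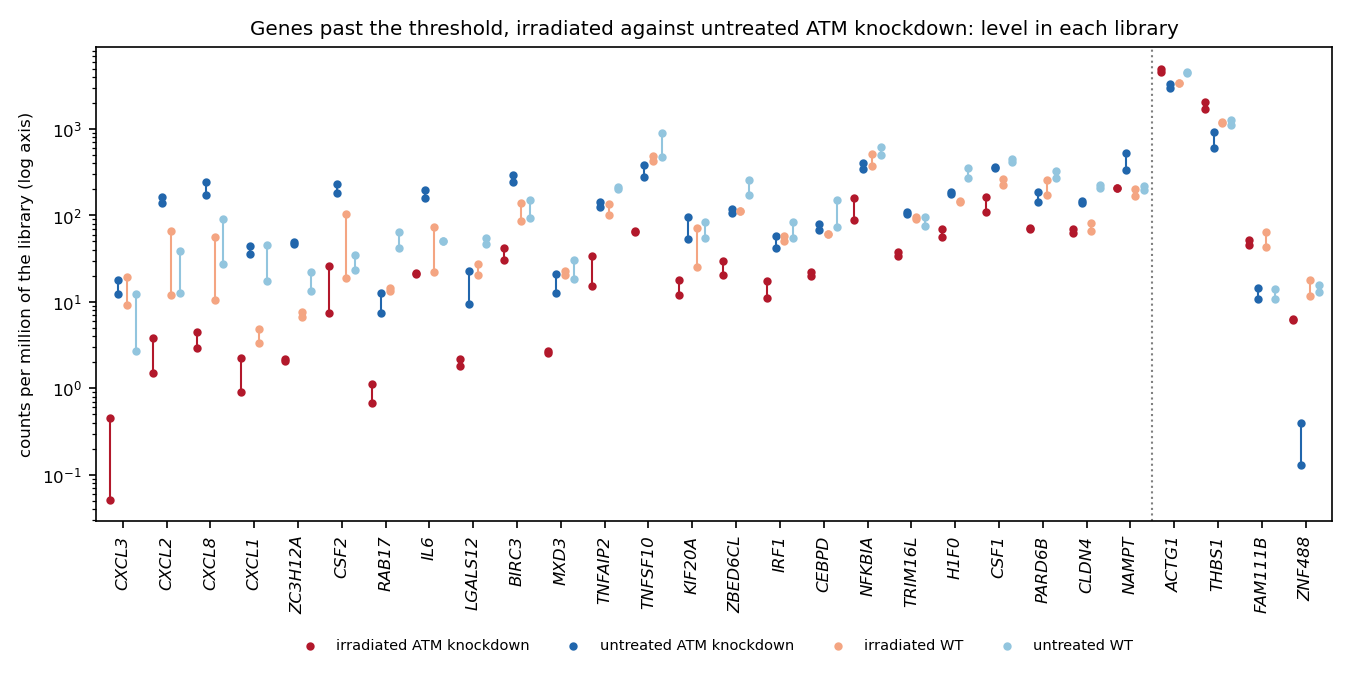
Level of each gene past the threshold in each of the 8 libraries, in CPM on a log axis, with irradiated knockdown, untreated knockdown, irradiated WT and untreated WT libraries as separate points. In all 28 genes the 2 irradiated knockdown points lie on the same side of both untreated knockdown points, below them in 24 genes and above them in 4.

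The chemokines of the CXCL family that attract neutrophils through the receptor CXCR2 fell most on the log2 scale. CXCL8, or interleukin 8 (chr4:73740506-73743716), had 4.49 and 2.94 CPM in irradiated libraries, against 173 and 244 CPM in untreated libraries. The groups lay far apart, and the log2 change was -5.80 ± 0.70 (SE, adjusted p = 0.00102). CXCL2 (chr4:74097035-74099293) had 3.84 and 1.495 CPM in irradiated libraries, against 138 and 166 CPM in untreated libraries, a log2 change of -5.82 ± 0.74 (adjusted p = 0.00144). CXCL1 (chr4:73869393-73871242) had 0.908 and 2.22 CPM in irradiated libraries, against 44.4 and 35.7 CPM in untreated libraries, a log2 change of -4.66 ± 0.60 (adjusted p = 0.00147). CXCL3 (chr4:74036589-74038807) had 9 counts and 1 count in irradiated libraries, or 0.454 and 0.0516 CPM, against 190 and 316 counts, or 12.4 and 17.9 CPM, in untreated libraries. Its log2 change of -5.86 ± 0.99 (adjusted p = 0.0156) rests on few irradiated counts. CXCL1, CXCL2 and CXCL3 are close paralogs, so reads may have been divided between them. In irradiated library 1 a single cell gave 83.3% of the CXCL1 counts, and in irradiated library 2 a single cell gave 69.0% of the CXCL2 counts. The largest cell also gave 17.3% and 46.0% of the CXCL2 counts and 30.3% and 27.9% of the CXCL8 counts of untreated libraries. The median CXCL2 level per cell was 53.6 and 17.4 CPM in untreated libraries, against 0 in both irradiated libraries.

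The promoters of CXCL8 and IL6 are textbook examples of promoters with a κB site, the DNA sequence that NF-κB binds. The promoters of the fallen genes were therefore read from RefSeq (GRCh38.p14), taking 250 bases before to 50 after the start that RefSeq's promoter table gives. This start can differ from that of the GENCODE gene positions printed here. The 2 were the same for CXCL1 and NFKBIA, while the RefSeq start lay 63 bases inside the GENCODE gene for CXCL8, 98 for CXCL2, 118 for CXCL3 and 1316 for IL6. Windows were matched for 19 of the 28 genes, 17 of them fallen. Of those 17, 7 held the palindrome GGANNNTCC, a core form of the κB site in which N is any base, and this form was found in 9.32% of all 35116 promoters in the table. The AP-1 form TGANTCA was found in 3 of the 17 windows and in 7.71% of all promoters, and CCAAT in 4 of the 17 and in 34.6% of all promoters. No fallen window held TTTGAA (15.2% of all promoters), TTTGGCGC (0.652%) or TTTCCCGC (1.63%). Both strands were searched, and the marked motifs do not overlap in the sequences printed. Both risen genes with a window, THBS1 and ACTG1, held CCAAT and neither held GGANNNTCC. For each of the 7 genes 1 match is shown, with 10 bases on each side, so that the sites can be compared. NFKBIA held 2 matches, beginning 242 and 81 bases before the RefSeq start, and the nearer one is shown. The genes were chosen after it was known that they fell, and the capitals mark GGANNNTCC.
CXCL8: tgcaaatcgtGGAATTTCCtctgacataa
CXCL1: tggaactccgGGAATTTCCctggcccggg
CXCL2: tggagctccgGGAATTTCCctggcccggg
CXCL3: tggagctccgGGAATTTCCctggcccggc
IL6: atcaaatgtgGGATTTTCCcatgagtctc
CSF2: ataagggccaGGAGATTCCacagttcagg
NFKBIA: tgactggcttGGAAATTCCccgagcctga
The CXCL1, CXCL2 and CXCL3 sites lie on chr4:73869305-73869333, chr4:74099254-74099282 and chr4:74038749-74038777, on the plus, minus and minus strand. The CXCL8 site lies on chr4:73740468-73740496 (plus strand), the IL6 site on chr7:22727118-22727146 (plus), the CSF2 site on chr5:132073677-132073705 (plus) and the NFKBIA site on chr14:35404812-35404840 (minus). A match of letters is a description of the window and does not show that a factor bound there in these cells.

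The whole window is printed for CXCL8 (chr4:73740319-73740618, plus strand) as the fallen chemokine with most counts, and for BIRC3 (chr11:102317234-102317533, plus strand) as the fallen gene with the smallest p. The capitals mark the AP-1 form and then GGANNNTCC.
CXCL8: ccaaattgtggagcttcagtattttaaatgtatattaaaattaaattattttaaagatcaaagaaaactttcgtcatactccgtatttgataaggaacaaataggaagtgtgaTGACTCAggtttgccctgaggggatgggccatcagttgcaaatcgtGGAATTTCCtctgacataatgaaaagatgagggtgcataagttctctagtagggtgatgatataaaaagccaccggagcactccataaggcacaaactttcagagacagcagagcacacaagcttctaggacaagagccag
BIRC3: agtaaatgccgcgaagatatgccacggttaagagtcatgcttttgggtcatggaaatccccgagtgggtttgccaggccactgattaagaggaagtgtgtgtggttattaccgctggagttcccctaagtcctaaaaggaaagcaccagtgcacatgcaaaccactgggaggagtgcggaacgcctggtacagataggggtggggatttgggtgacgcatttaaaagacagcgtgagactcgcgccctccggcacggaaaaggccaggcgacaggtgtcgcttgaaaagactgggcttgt
In CXCL8 the AP-1 form begins 137 bases before the RefSeq start and GGANNNTCC begins 91 bases before it. The BIRC3 window held none of the 6 motifs, which says only that these letters are not in these 300 bases. Forms of the κB site other than GGANNNTCC were not searched for.

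The cytokine genes IL6, CSF2, CSF1 and TNFSF10 fell as well. IL6 (chr7:22725884-22732002), interleukin 6, had 20.8 and 21.8 CPM in irradiated libraries, against 159 and 197 CPM in untreated libraries. The irradiated libraries were alike and far below both untreated ones, with a log2 change of -3.05 ± 0.40 (adjusted p = 0.00158). IL6 overlaps STEAP1B in the annotation. CSF2 (chr5:132073790-132076170), the granulocyte-macrophage colony-stimulating factor, had 26.2 and 7.48 CPM in irradiated libraries, against 229 and 184 CPM in untreated libraries. Its irradiated libraries differed from each other more than the untreated ones did in ratio, and the log2 change was -3.61 ± 0.63 (adjusted p = 0.0184). CSF1, the macrophage colony-stimulating factor, had 110.3 and 163 CPM in irradiated libraries, against 365 and 349.8 CPM in untreated libraries, a log2 change of -1.38 ± 0.19 (adjusted p = 0.00205). TNFSF10 (chr3:172505508-172523507), which encodes the death ligand TRAIL, had 65.8 and 65.0 CPM in irradiated libraries, against 382 and 282 CPM in untreated libraries. Its log2 change was -2.34 ± 0.25 (adjusted p = 0.000366).

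Over the list of ligands, 29 genes were tested, 21 had a lower and 7 a higher fitted level in irradiated libraries, and 8 fell and none rose. The list's median log2 change was -1.498, against 0.01 over all tested genes, and at an unadjusted p under 0.05 there were 13 lower and 2 higher members. Over all tested genes 4.81% were lower and 4.05% higher at that p. Its summed level was 733 and 777 CPM in irradiated libraries, against 2190 and 1989 CPM in untreated libraries. LIF, a cytokine of the interleukin 6 family, had 38.2 and 44.4 CPM in irradiated libraries, against 49.0 and 59.96 CPM in untreated libraries, and did not pass (log2 change -0.39, adjusted p = 0.80). CCL2, a monocyte chemokine, had 0 counts in all 4 knockdown libraries, which allows a level of up to 0.151 and 0.155 CPM in irradiated and 0.196 and 0.170 CPM in untreated libraries. It stood at 28.2 and 12.5 CPM in irradiated and 65.8 and 21.5 CPM in untreated WT libraries.

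**Figure D2:**
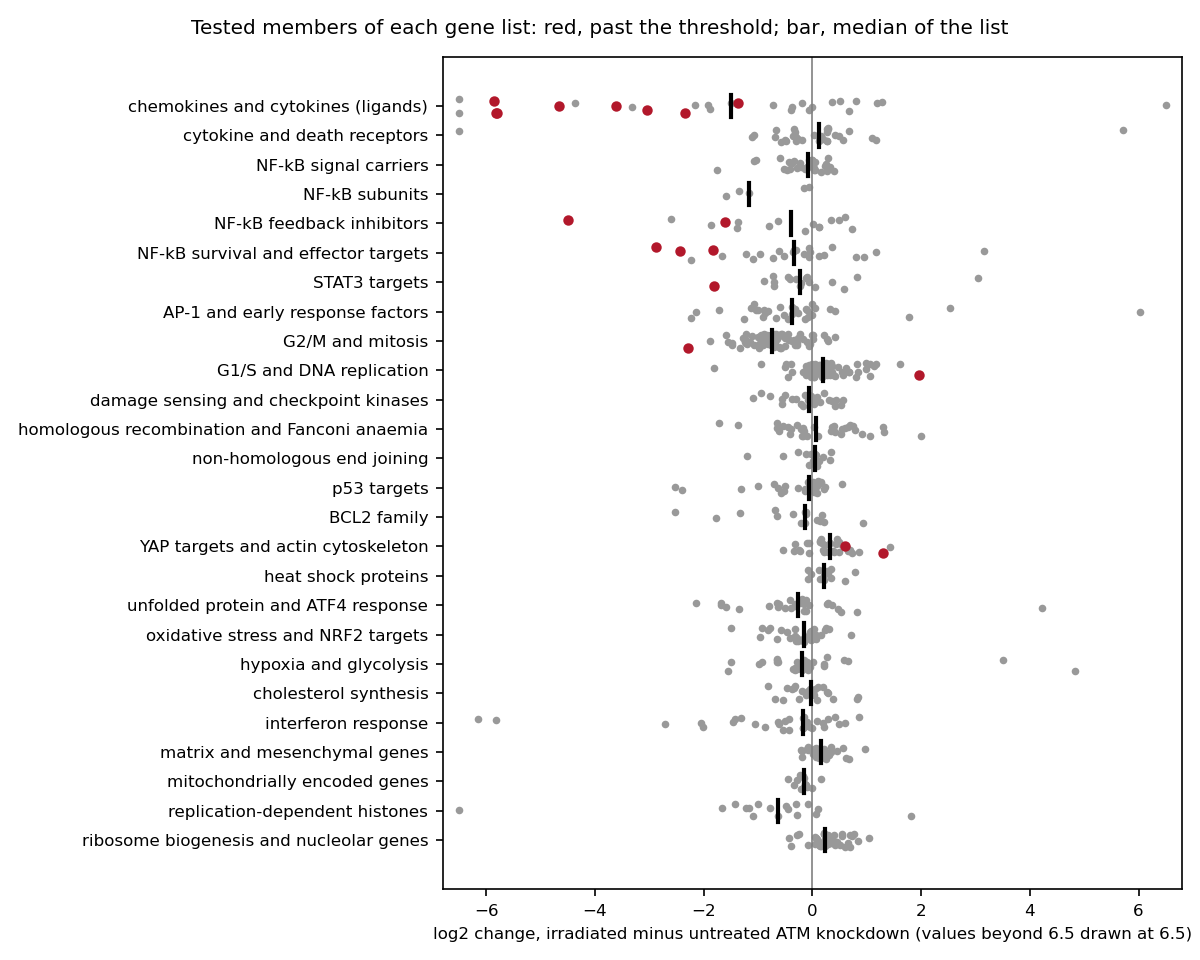
Log2 change (irradiated minus untreated ATM knockdown) of each tested gene, grouped by gene list, with genes past the threshold in red and each list's median as a bar, and values beyond 6.5 drawn at 6.5. The ligand list has the lowest median, -1.498, and holds 8 of the 24 genes that fell, while the lists of NF-κB subunits and of G2/M and mitosis have medians of -1.17 and -0.75.

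Upstream of NF-κB, receptors and signal carriers showed no passing gene. Of 33 cytokine and death receptors 18 were higher and 15 lower, with a median of 0.12, and of 31 NF-κB signal carriers 11 were higher and 20 lower, with a median of -0.09. IFNGR1, a subunit of the interferon-γ receptor, had 42.8 and 54.2 CPM in irradiated libraries, against 124 and 79.9 CPM in untreated libraries (log2 change -1.07, adjusted p = 0.13). IRAK2, a kinase of the interleukin 1 receptor pathway, had 11.5 and 6.45 CPM in irradiated libraries, against 38.3 and 22.0 CPM in untreated libraries (log2 change -1.75, adjusted p = 0.194). In both genes the irradiated libraries lay below the untreated ones, as in 19.1% of all tested genes, and neither passed. Among the 5 subunits none passed. RELA, the main activating subunit, had 105 and 99.1 CPM in irradiated and 95.5 and 119 CPM in untreated libraries, and NFKB1 had 51.4 and 33.4 CPM in irradiated and 39.4 and 55.5 CPM in untreated libraries. The groups overlapped in both. NFKB2, RELB and REL are subunits whose genes are themselves NF-κB targets. NFKB2 had 18.1 and 8.46 CPM in irradiated libraries, against 39.6 and 40.4 CPM in untreated libraries (log2 change -1.59, adjusted p = 0.235). RELB had 13.6 and 11.1 CPM in irradiated libraries, against 36.0 and 27.0 CPM in untreated libraries (log2 change -1.35, adjusted p = 0.249). REL had 7.47 and 7.89 CPM in irradiated libraries, against 17.1 and 17.7 CPM in untreated libraries (log2 change -1.17, adjusted p = 0.518). In these 3 subunits both irradiated libraries lay below both untreated ones, which held for 19.1% of all tested genes.

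Of 16 tested feedback inhibitors of NF-κB 2 fell and none rose. NFKBIA, which encodes the inhibitor IκBα, had 158 and 88.2 CPM in irradiated libraries, against 349 and 403 CPM in untreated libraries. Its log2 change was -1.61 ± 0.23 (adjusted p = 0.00337), and the median level per cell was 83.5 and 67.8 CPM in irradiated libraries, against 339 and 239.6 CPM in untreated libraries. ZC3H12A, which encodes the ribonuclease Regnase-1 that degrades cytokine mRNAs, had 2.17 and 2.06 CPM in irradiated libraries, against 46.5 and 49.8 CPM in untreated libraries. Its libraries were alike within each group, and the log2 change was -4.50 ± 0.46 (adjusted p = 0.000357). BCL3, an atypical IκB protein, had 7.37 and 6.24 CPM in irradiated libraries, against 18.8 and 31.3 CPM in untreated libraries, and did not pass (log2 change -1.87, adjusted p = 0.0631). TNFAIP3, which encodes the deubiquitinase A20, had 2.93 and 4.28 CPM in irradiated libraries, against 9.09 and 9.91 CPM in untreated libraries (log2 change -1.39, adjusted p = 0.678). The median of the list was -0.39.

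Among 25 tested survival and effector targets 3 fell and none rose, with a median of -0.33. BIRC3, the inhibitor of apoptosis protein cIAP2 (chr11:102317450-102339403), had 42.2 and 30.8 CPM in irradiated libraries, against 245 and 295 CPM in untreated libraries, and the smallest adjusted p of the comparison (log2 change -2.88 ± 0.28, adjusted p = 0.000349). A single cell gave 74.2% of the BIRC3 counts of irradiated library 1. TNFAIP2, a protein induced by tumour necrosis factor, had 34.0 and 15.3 CPM in irradiated libraries, against 144 and 125 CPM in untreated libraries (log2 change -2.44 ± 0.29, adjusted p = 0.00102). IRF1, an interferon regulatory factor, had 17.3 and 11.0 CPM in irradiated libraries, against 42.5 and 58.4 CPM in untreated libraries (log2 change -1.83 ± 0.32, adjusted p = 0.0184). None of these 3 genes had overlapping groups. IRF1 lost its call without irradiated library 2 and on mean CPM per cell, with adjusted p-values of up to 0.117 over the alternatives. Of 18 STAT3 targets CEBPD alone fell. This transcription factor gene had 22.0 and 19.8 CPM in irradiated libraries, against 68.7 and 79.4 CPM in untreated libraries (log2 change -1.82 ± 0.30, adjusted p = 0.0121). In the AP-1 and early response list no gene passed, while 26 of 33 were lower and the median was -0.38. FOS had 54.1 and 28.3 CPM in irradiated libraries, against 74.7 and 95.01 CPM in untreated libraries (log2 change -1.04, adjusted p = 0.186). FOSL2, another AP-1 subunit, had 78.0 and 76.8 CPM in irradiated libraries, against 151 and 137 CPM in untreated libraries (log2 change -0.89, adjusted p = 0.183).

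Counts per cell were then read at a common depth of 80000 counts, which 154 of the 171 cells reached. The cells that did not reach it were 0 and 3 in irradiated and 8 and 6 in untreated libraries. The genes below were chosen because they fell in the summed counts, so their shares describe the cells in which a count was found and carry no test. A CXCL8 count was found in 14.0% and 7.5% of irradiated cells (exact 95% binomial intervals 5.298 to 27.9% and 1.57 to 20.4%), against 60.6% and 89.5% of untreated cells (42.1 to 77.1% and 75.2 to 97.1%). The intervals cover the sampling of cells within a library. Without thinning the shares were 18.6% and 14.0% of irradiated and 80.5% and 93.2% of untreated cells. CXCL2 counts were found in 9.30% and 5.0% of irradiated cells, against 75.8% and 57.9% of untreated cells. CXCL1 counts were found in 2.33% and 5.0% of irradiated cells, against 57.6% and 47.4% of untreated cells. CXCL3 was found in 2.33% of cells of irradiated library 1 and in 0 of 40 cells of irradiated library 2 (exact 95% interval up to 8.81%), against 27.3% and 34.2% of untreated cells. In all 4 chemokines both irradiated shares lay below both untreated shares.

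The other fallen genes read in this way differed in the share of cells with a count. IL6 counts were found in 39.5% and 30.0% of irradiated cells, against 63.6% and 63.2% of untreated cells, and CSF2 counts in 37.2% and 20% of irradiated cells, against 75.8% and 68.4% of untreated cells. BIRC3 counts were found in 27.9% and 50% of irradiated cells, against 87.9% and 94.7% of untreated cells. For CSF1 and NFKBIA most cells of both groups held a count. CSF1 was found in 88.4% and 90% of irradiated cells, against 97.0% and 92.1% of untreated cells, and its median level per cell was 68.0 and 90.9 CPM in irradiated libraries, against 224 and 299.8 CPM in untreated libraries. NFKBIA was found in 86.0% and 82.5% of irradiated cells, against 93.9% and 97.4% of untreated cells. The chemokines thus had a count in fewer cells, whereas CSF1 and NFKBIA were detected in most cells of both groups at a lower median level in the irradiated ones. A share of cells with a count depends on the level, however. In irradiated libraries CSF1 stood at 110.3 and 163 CPM and NFKBIA at 158 and 88.2 CPM, against at most 4.49 CPM for the chemokines. Fewer expressing cells therefore cannot be told apart from less RNA per cell here.

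**Figure D3:**
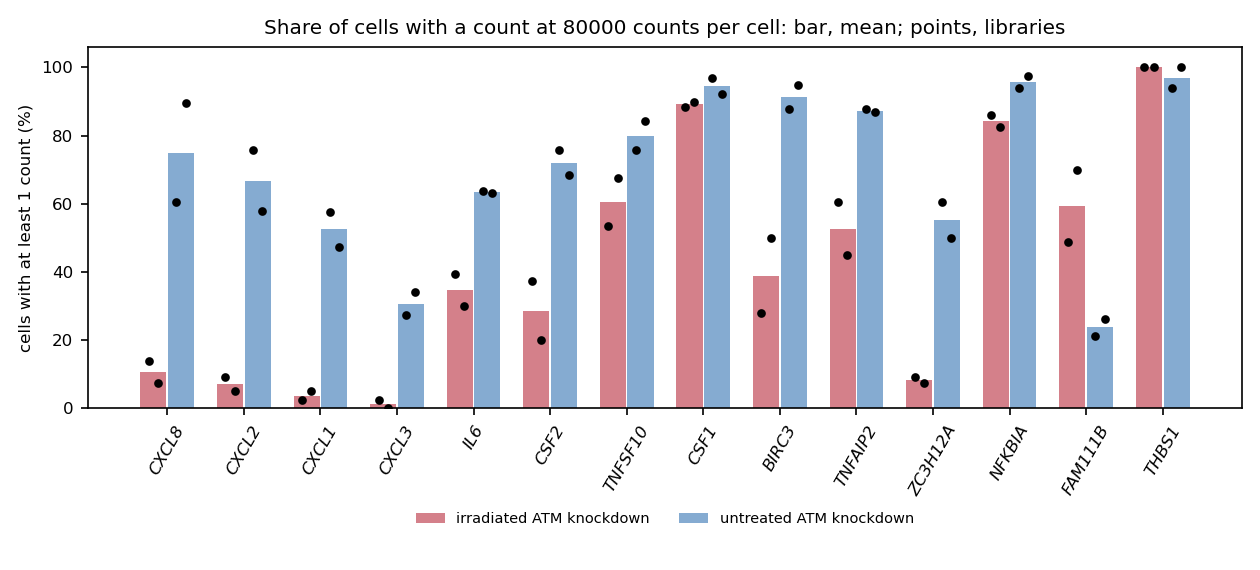
Share of knockdown cells with at least 1 count of each gene at 80000 counts per cell (percent, axis from 0), with bars for the mean of the 2 libraries and points for the libraries, irradiated left of untreated. CXCL8 is found in at most 14.0% of irradiated cells of a library, against at least 60.6% of untreated cells, while CSF1 and NFKBIA are found in over 80% of cells in all 4 libraries.

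Few irradiated cells held several of these ligands at once. Of the 6 inflammatory ligands CXCL1, CXCL2, CXCL3, CXCL8, IL6 and CSF2, 3 or more were found in 2 of 43 and 1 of 40 irradiated cells, or 4.65% and 2.50% (exact intervals 0.568 to 15.8% and 0.0633 to 13.2%). The same was found in 27 of 33 and 29 of 38 untreated cells, or 81.8% and 76.3% (64.5 to 93.0% and 59.8 to 88.6%). None of the 6 was found in 30.2% and 52.5% of irradiated cells, against 0 of 33 untreated cells of library 1, which allows a share of up to 9.09%, and 5.26% of those of library 2. No irradiated cell held more than 3 of the 6, whereas some untreated cells of each library held all 6. In untreated library 2 all 24 cells with IL6 were among the 34 of 38 cells with CXCL8. In untreated library 1 14 of the 21 cells with IL6 were among the 20 of 33 cells with CXCL8. Most cells of both libraries held CXCL8, so these counts alone do not show a link between the genes. IL6 was found in 63.6% of cells with and 62.5% of cells without CXCL2 in untreated library 2. In untreated library 1 these shares were 76% and 25%. Of the 8 ligands that fell, the median number found per cell was 2 and 2 in irradiated libraries, against 6 and 5 in untreated libraries. At 20000 counts per cell the share with 3 or more of the 6 was 2.33% in both irradiated libraries, against 35.9% and 50% in untreated libraries. At the same 80000 counts the median number of all genes found was 6197 and 5938.5 in irradiated cells, against 5399 and 5281.5 in untreated cells, so the irradiated cells held fewer of the ligands while more genes were detected in them.

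**Figure D4:**
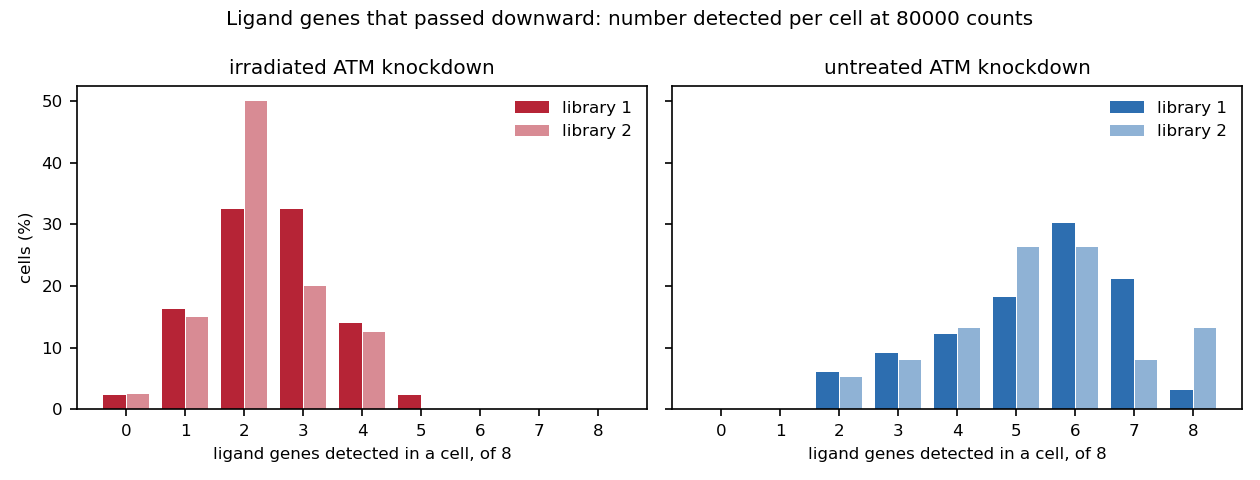
Percentage of cells by the number of the 8 fallen ligand genes found in a cell at 80000 counts, with irradiated knockdown cells in the left panel, untreated knockdown cells in the right panel and a bar for each library. Irradiated knockdown cells centre on 2 ligands and untreated knockdown cells on 5 to 6.

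The other fallen genes came from several families and 8 of the 24 were in no list. H1F0, the linker histone H1.0, had 56.5 and 70.5 CPM in irradiated libraries, against 189 and 175 CPM in untreated libraries (log2 change -1.51 ± 0.19, adjusted p = 0.00144). NAMPT, the rate-limiting enzyme of NAD salvage, had 205 and 209 CPM in irradiated libraries, against 534 and 335 CPM in untreated libraries (log2 change -1.06 ± 0.20, adjusted p = 0.0408). PARD6B, a cell polarity protein, had 71.3 and 70.6 CPM in irradiated libraries, against 145 and 189 CPM in untreated libraries (log2 change -1.22 ± 0.21, adjusted p = 0.0156). The irradiated libraries were close to each other in NAMPT and PARD6B. CLDN4, the tight junction protein claudin 4, had 63.3 and 69.3 CPM in irradiated libraries, against 148 and 139 CPM in untreated libraries (log2 change -1.11 ± 0.19, adjusted p = 0.0184). The groups were separate in each of these 4 genes. NAMPT lost its call without irradiated library 1 or 2 or untreated library 1, and CLDN4 without irradiated library 1, with adjusted p-values of up to 0.184 and 0.133 over the alternatives. ZBED6CL, which overlaps LRRC61, had 29.4 and 20.5 CPM in irradiated libraries, against 108.2 and 119 CPM in untreated libraries (log2 change -2.18). TRIM16L, a paralog of TRIM16, had 34.2 and 37.9 CPM in irradiated libraries, against 110.5 and 105 CPM in untreated libraries (log2 change -1.57). RAB17, a small GTPase of vesicle transport, and LGALS12, a galectin, fell at levels of at most 2.17 CPM in irradiated and at most 22.6 CPM in untreated libraries, and both calls were lost on mean CPM per cell and in the knockdown libraries fitted alone. MXD3, a member of the MYC and MAX network that overlaps RAB24 and PRELID1, had 2.73 and 2.58 CPM in irradiated libraries, against 12.7 and 20.8 CPM in untreated libraries. Its call was lost without irradiated library 1 or 2 and under 3 other settings, with an adjusted p of up to 0.274.

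The 4 genes that rose encode a matrix protein, an actin, a replication-phase protease and a zinc finger protein. THBS1, thrombospondin 1 (chr15:39581079-39599466), had 2052 and 1684 CPM in irradiated libraries, against 596 and 934 CPM in untreated libraries. Both irradiated libraries exceeded both untreated ones, with a log2 change of 1.30 ± 0.17 (adjusted p = 0.00162), and nearly every cell of both groups held a count. ACTG1, the cytoplasmic γ-actin, had 4537 and 5012 CPM in irradiated libraries, against 3025 and 3300.4 CPM in untreated libraries (log2 change 0.60 ± 0.09, adjusted p = 0.00765), and its counts may be shared with 20 named pseudogenes. FAM111B, which is expressed in S phase, had 45.7 and 52.2 CPM in irradiated libraries, against 10.8 and 14.4 CPM in untreated libraries (log2 change 1.97 ± 0.34, adjusted p = 0.0183). A FAM111B count was found in 48.8% and 70.0% of irradiated cells, against 21.2% and 26.3% of untreated cells. Its call was lost under 4 alternatives, without untreated library 1 or irradiated library 2 among them, with an adjusted p of up to 0.0661. ZNF488 had 124 and 121 counts in irradiated libraries, against 2 and 7 counts in untreated libraries. In each untreated library all its counts lay in 1 cell. The irradiated counts came from few cells as well. Without thinning, a ZNF488 count was found in 14.0% and 18.6% of irradiated cells. The largest cell gave 33.9% and 29.8% of the irradiated counts. The log2 change of ZNF488 was 4.52 ± 0.73 (adjusted p = 0.0118), and the call was lost under 3 alternatives. Irradiated knockdown libraries held ZNF488 at 6.26 and 6.24 CPM. The WT libraries stood higher, at 17.9 and 11.8 CPM in irradiated and 15.8 and 13.1 CPM in untreated libraries.

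THBS1 and ACTG1 belong to a list of 33 tested YAP targets and actin cytoskeleton genes, of which 25 were higher and 8 lower in irradiated libraries, with a median of 0.33. At an unadjusted p under 0.05, 15 of them were higher and 1 was lower, against 4.05% and 4.81% of all tested genes. In 20 of the 33 both irradiated libraries lay above both untreated ones, against 20.4% of all tested genes. F3, tissue factor, had 743 and 733 CPM in irradiated libraries, against 397 and 495 CPM in untreated libraries, and did not pass (log2 change 0.73, adjusted p = 0.0547). In the list of ribosome biogenesis and nucleolar genes 41 of 46 were higher, none passed and the median was 0.23. NOP16, a nucleolar protein, had 235 and 217 CPM in irradiated libraries, against 108.3 and 113 CPM in untreated libraries (log2 change 1.04, adjusted p = 0.0883). Of 13 heat shock genes 10 were higher and none passed, with a median of 0.22. HSPA8, the constitutive chaperone Hsc70, had 2209.6 and 2221 CPM in irradiated libraries, against 1479 and 1447 CPM in untreated libraries (log2 change 0.61, adjusted p = 0.117). In the other direction, 12 of the 13 mitochondrially encoded genes were lower, with a median of -0.16 and none passing. DDIT4, a stress-induced inhibitor of mTORC1, had 15.3 and 21.2 CPM in irradiated libraries, against 64.0 and 54.2 CPM in untreated libraries, and did not pass (log2 change -1.69, adjusted p = 0.0631).

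Genes of G2 and mitosis were lower in irradiated cells as a group, and 1 of them fell. Of 83 tested, 77 had a lower and 6 a higher fitted level, with a median of -0.75 against 0.01 over all tested genes, and 47 were lower at an unadjusted p under 0.05, against 4.81% of all tested genes. In 65 of the 83 both irradiated libraries lay below both untreated ones, against 19.1% of all tested genes. The summed level was 7222 and 6317 CPM in irradiated libraries, against 10049 and 11698 CPM in untreated libraries. KIF20A, a mitotic kinesin that overlaps BRD8 and CDC23, had 17.8 and 12.2 CPM in irradiated libraries, against 52.9 and 94.8 CPM in untreated libraries (log2 change -2.29 ± 0.44, adjusted p = 0.0415). It lost its call without irradiated library 2, where the adjusted p was at its highest, 0.07. PLK1, the Polo-like kinase of mitotic entry, had 36.5 and 22.0 CPM in irradiated libraries, against 82.4 and 95.3 CPM in untreated libraries (log2 change -1.60, adjusted p = 0.296). CCNB1, which encodes cyclin B1, had 208 and 182 CPM in irradiated libraries, against 281 and 436 CPM in untreated libraries (log2 change -0.87, adjusted p = 0.528). Both proteins act at entry into mitosis. CCNB2, cyclin B2, had 38.3 and 44.1 CPM in irradiated libraries, against 91.3 and 105 CPM in untreated libraries (log2 change -1.25, adjusted p = 0.13). MKI67, the proliferation marker Ki-67, had 231 and 167 CPM in irradiated libraries, against 295 and 479 CPM in untreated libraries (log2 change -0.95, adjusted p = 0.398). None of these 4 genes passed, and in each both irradiated libraries lay below both untreated ones.

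The libraries differed more at the upper end of the mitotic share per cell than at its median. At 80000 counts per cell the median share of a cell's counts taken by the 83 genes was 0.510% and 0.515% in irradiated libraries, against 0.409% and 0.878% in untreated libraries, so the medians overlapped. The 90th percentile was 1.26% and 1.45% in irradiated libraries, against 2.42% and 2.44% in untreated libraries. In WT libraries it was 2.53% and 1.71% in irradiated and 3.01% and 1.84% in untreated cells. With 2 libraries against 2 an exact two-sided permutation test cannot give a p below 0.333. Genes of G1/S and DNA replication showed the other direction, with 51 of 70 higher, a median of 0.20, FAM111B passing and 11 higher against 1 lower at an unadjusted p under 0.05, where 4.05% and 4.81% of all tested genes were. Their median share of a cell's counts was 0.575% and 0.514% in irradiated libraries, against 0.398% and 0.389% in untreated libraries. TIPIN, a replication fork protein, had 51.4 and 28.8 CPM in irradiated libraries, against 13.6 and 12.8 CPM in untreated libraries (log2 change 1.61, adjusted p = 0.145). CCND1, which encodes cyclin D1, had 592 and 391 CPM in irradiated libraries, against 298 and 262 CPM in untreated libraries (log2 change 0.81, adjusted p = 0.122).

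**Figure D5:**
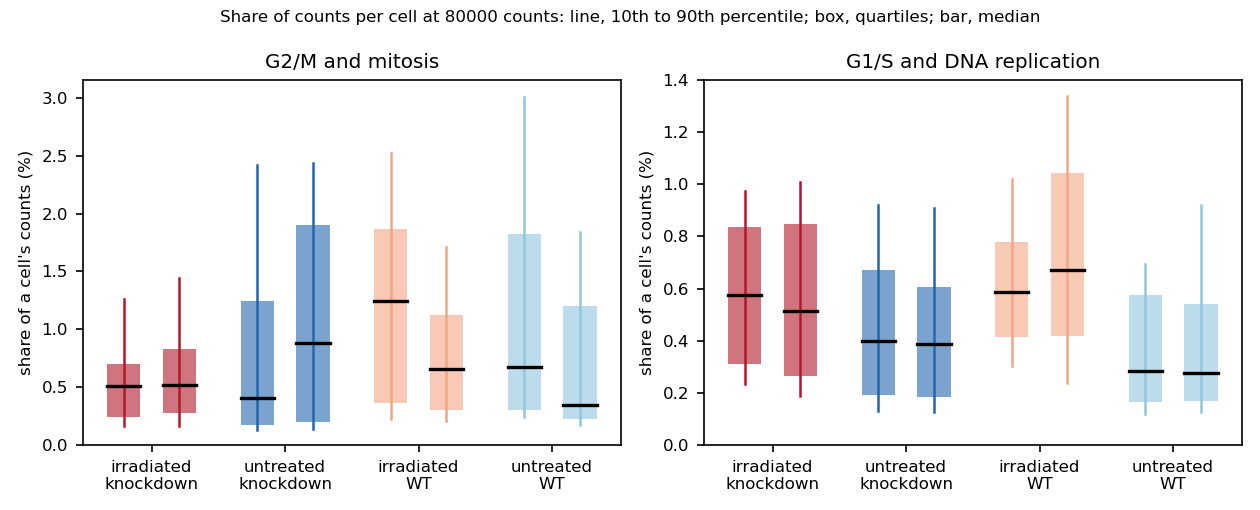
Share of each cell's counts (percent) taken by the genes of G2 and mitosis and by those of G1/S and DNA replication at 80000 counts per cell, by library, with the 10th to 90th percentile as a line, the quartiles as a box and the median as a bar. In irradiated knockdown libraries the 90th percentile of the mitotic share is 1.26% and 1.45%, against 2.42% and 2.44% in untreated knockdown libraries, while the median G1/S share is 0.575% and 0.514%, against 0.398% and 0.389%.

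Genes of the DNA damage response itself did not pass in either direction. Of 29 tested p53 targets 12 were higher and 16 lower, with a median of -0.06, and of 25 damage sensors and checkpoint kinases 11 were higher and 14 lower, with a median of -0.06. CDKN1A, which encodes the cell cycle inhibitor p21, had 61.6 and 89.5 CPM in irradiated libraries, against 132 and 95.2 CPM in untreated libraries (log2 change -0.58 ± 0.31, adjusted p = 0.622). MDM2, the ubiquitin ligase of p53, had 17.1 and 23.3 CPM in irradiated libraries, against 17.7 and 20.4 CPM in untreated libraries (log2 change 0.10 ± 0.39, adjusted p = 0.984). GDF15, a stress cytokine, had 1.36 and 9.69 CPM in irradiated libraries, against 53.1 and 5.83 CPM in untreated libraries (log2 change -2.41 ± 0.98, adjusted p = 0.47). The groups overlapped in MDM2 and GDF15, and a p that misses the threshold does not show that these levels were equal. MDA-MB-231 is known to carry a mutant p53. Of 34 homologous recombination and Fanconi anaemia genes 18 were higher and of 16 end joining genes 10 were higher, with medians of 0.07 and 0.04. BBC3, the BH3-only protein PUMA, had 1.06 and 1.65 CPM in irradiated libraries, against 9.68 and 6.12 CPM in untreated libraries (log2 change -2.53, adjusted p = 0.404).

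The response of the knockdown cells was last compared with that of WT cells, as the difference of the log2 changes (knockdown minus WT). Of the 12456 genes, 23 passed (0.185%), 13 with a positive and 10 with a negative difference, and 11 of them were among the 28 genes that changed in knockdown cells. None of these 11 passed in WT cells. The difference contains the same knockdown values that picked the 28 genes. The overlap and the lack of WT calls are therefore partly built in, and they describe these genes without testing them. Leaving out a library gave 31 to 128 genes, with 48 and 31 without irradiated knockdown library 1 or 2, 65 and 52 without untreated knockdown library 1 or 2, 44 and 33 without irradiated WT library 1 or 2, and 128 and 51 without untreated WT library 1 or 2. CXCL8 had 10.5 and 56.3 CPM in irradiated and 92.1 and 27.3 CPM in untreated WT libraries, so the WT groups overlapped, and the log2 change there was -0.80. The difference of the responses was -5.002 (adjusted p = 0.0336). CXCL2 had 12.1 and 66.0 CPM in irradiated and 39.2 and 12.5 CPM in untreated WT libraries, and its difference was -6.45 (adjusted p = 0.00727). BIRC3 had 86.1 and 138 CPM in irradiated and 94.1 and 150.3 CPM in untreated WT libraries, and its difference was -2.77 (adjusted p = 0.00531). The WT groups overlapped in CXCL2 and BIRC3 as well. IL6 had 22.2 and 73.7 CPM in irradiated and 50.9 and 50.2 CPM in untreated WT libraries, and its difference was -3.004 (adjusted p = 0.0367). CSF2 had 18.8 and 105 CPM in irradiated and 23.1 and 34.7 CPM in untreated WT libraries, and its difference was -4.73 (adjusted p = 0.0367). The irradiated WT libraries differed from each other severalfold in these ligands, with library 1 the lower in each.

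Untreated knockdown and untreated WT cells also differed in some of these genes. The genes were picked with the same untreated knockdown values, so this is not an independent result. Over all 12456 tested genes, 602 were higher in untreated knockdown than in untreated WT libraries past the threshold. Of the 28 genes 6 were, namely BIRC3, ZC3H12A, IL6, CXCL2, CSF2 and NAMPT. The log2 difference was 2.78 for CSF2 (adjusted p = 0.00881), 2.50 for CXCL2 (adjusted p = 0.0177) and 1.76 for IL6 (adjusted p = 0.00776). Choosing the 24 fallen genes by low irradiated and high untreated knockdown levels favours the counts that follow. Their shares over all tested genes were not counted, so they describe these genes and test nothing. In 21 of the 24 fallen genes all 4 WT libraries lay above both irradiated knockdown libraries, and in 8 both untreated knockdown libraries lay above all 4 WT libraries. For CXCL8 this pair of statements gives irradiated knockdown cells at 4.49 and 2.94 CPM, untreated knockdown cells at 173 and 244 CPM and WT cells between 10.5 and 92.1 CPM. Of the 6 inflammatory ligands, 3 or more were found in 12.1% and 44.2% of irradiated and 58.1% and 28.3% of untreated WT cells, which lies between the shares of the knockdown groups. Since the WT libraries carry another title suffix, these differences between genotypes cannot be told apart from handling.

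Other fallen genes changed in both genotypes. CXCL1 had 4.83 and 3.30 CPM in irradiated and 17.2 and 45.3 CPM in untreated WT libraries, and it fell there too (log2 change -2.94, adjusted p = 0.0178). CSF1 fell in WT cells by 0.80 on the log2 scale (adjusted p = 0.042), H1F0 by 1.10 (adjusted p = 0.0112) and CLDN4 by 1.52 (adjusted p = 0.00151). RAB17 had 13.5 and 14.4 CPM in irradiated and 42.1 and 64.1 CPM in untreated WT libraries, and it fell there too (log2 change -1.91, adjusted p = 0.037). FAM111B rose in WT cells by 2.13 (adjusted p = 0.00758), to 43.2 and 64.1 CPM in irradiated libraries, against 10.8 and 14.1 CPM in untreated libraries, and the difference of the responses was -0.16 (adjusted p = 0.958). THBS1 had 1212 and 1170.1 CPM in irradiated and 1111 and 1276 CPM in untreated WT libraries, with a difference of the responses of 1.28 (adjusted p = 0.043), and ACTG1 had a difference of 0.98 (adjusted p = 0.00531). Among the mitotic genes none passed the test of the difference, with medians of -0.75 in knockdown and -0.04 in WT cells. For G1/S genes the medians were 0.20 in knockdown and 0.93 in WT cells, and none of the 70 passed the test of the difference.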

How the data were processed

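The deposited tables hold whole-number counts per gene and cell. Per the submitters' processing notes the authors used Trimmomatic 0.36, HISAT2 2.1.0, HTSeq 0.9.1 and hg38. Use of strand is not given in the sources used here, so overlapping genes are uncertain. Cells with at least 1000 genes and 5000 counts were kept and their counts summed per library, at 9321268 to 24256471 counts a library. After filterByExpr and TMM scaling, edgeR 4.0.16 ran its quasi-likelihood test on the 4 groups of 2 libraries in 1 fit (4 residual degrees of freedom, common biological coefficient of variation 0.458) and Benjamini-Hochberg adjustment over 12456 genes. An adjusted p under 0.05 is called passed. The ± values after log2 changes are standard errors worked out from the log2 change and the quasi-likelihood test statistic. Alternatives were DESeq2 1.42.0, limma 3.58.1, other scalings and filters, and leaving out each library. Per-cell values used counts thinned with a fixed seed. Gene positions came from GENCODE 29 and promoters from RefSeq, whose gene starts can differ. The members and lists were chosen with earlier results of these data known. Genes named are all those that passed and the 8 with the smallest adjusted p of the difference between genotypes. Others were taken from the 3 with the smallest p of a list and from a fixed set, of which not all are printed. Intervals and limits cover counting error only.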

Additional observations from a re-analysis of the deposited data

Results flagged for a closer look

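In 17 of the genes named here the response to irradiation differed between knockdown and WT cells by the test of the difference itself (knockdown minus WT, log2, edgeR adjusted p in parentheses). Genotype cannot be told apart from handling of the libraries in any of them. Among the genes that fell in irradiated knockdown cells, the difference was -6.79 for CXCL3 (0.0367), -6.45 for CXCL2 (0.00727), -5.002 for CXCL8 (0.0336), -4.73 for CSF2 (0.0367) and -3.004 for IL6 (0.0367). It was -3.21 for ZC3H12A (0.0367), -2.77 for BIRC3 (0.00531), -1.77 for TNFSF10 (0.0466) and -1.73 for TRIM16L (0.0367). Among the genes that rose, it was 1.28 for THBS1 (0.043) and 0.98 for ACTG1 (0.00531).

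In the other 6 genes the knockdown response did not pass and the WT response did. AKR1B1, an aldo-keto reductase, had 1922 and 1916 CPM in irradiated and 1559 and 1733 CPM in untreated knockdown libraries, against 1563 and 1415 CPM in irradiated and 7602 and 7479 CPM in untreated WT libraries. Its difference was 2.55 (1.33e-07). AKR1C1, of the same family, had 28.3 and 40.1 CPM in irradiated and 69.7 and 64.0 CPM in untreated knockdown libraries, against 66.7 and 109 CPM in irradiated and 608 and 561 CPM in untreated WT libraries, a difference of 1.75 (0.0367). The difference was 1.65 for MRPS6 (0.00391), a mitochondrial ribosomal protein that overlaps SLC5A3, and 2.28 for PSG5 (0.0287). Both fell in WT cells, with log2 changes of -1.66 for MRPS6 and -1.17 for PSG5. Their log2 changes in knockdown cells were -0.01 and 1.11. PLAT, tissue plasminogen activator, had 109.6 and 161 CPM in irradiated and 66.1 and 45.2 CPM in untreated knockdown libraries, and its difference was 2.67 (0.00531). In WT cells PLAT fell, with 98.5 and 78.1 CPM in irradiated and 201 and 264 CPM in untreated libraries. SLC4A7, a bicarbonate transporter, had 59.9 and 64.1 CPM in irradiated and 30.2 and 32.9 CPM in untreated knockdown libraries, and its difference was 2.58 (0.00727). In WT cells SLC4A7 fell, with 24.5 and 27.5 CPM in irradiated and 91.9 and 68.5 CPM in untreated libraries.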

How the results depend on the processing

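The number of genes past the threshold between irradiated and untreated knockdown libraries was 28. It became 236 with no filter on low counts, 177 with the DESeq2 Wald test, 122 on mean CPM per cell with limma, 68 without cells above 2 times the median total, 65 in the knockdown libraries alone and 44 to 142 with a library left out. The number for the difference between genotypes was 23, and became 195 with no filter, 159 with DESeq2, 45 with a stricter minimum (average log2 CPM of 5) and 31 to 128 with a library left out. The causes were not tested. ATM, at -1.12, was -0.52 with limma (adjusted p = 0.12) and -1.49 to -0.87 with a library left out. At 20000 in place of 80000 counts per cell, the mean share of cells with 3 or more of 6 ligands differed by -40.6 in place of -75.5 percentage points, the median G1/S share by 0.10 in place of 0.151 and the mitochondrial share by -1.17 in place of -1.04. Small changes turned sign: MRPS6 was 0.16 with limma, 0.18 without the largest cells and -0.0994 to 0.0615 with a library left out, where MDM2 ran from -0.16 to 0.31, RELA from -0.22 to 0.0756 and NFKB1 from -0.49 to 0.11. Of the 28 genes, none turned sign, and the calls lost under an alternative were those of RAB17, LGALS12, ZNF488, FAM111B, CLDN4, IRF1, MXD3, NAMPT and KIF20A. The stricter minimum left 8 of the 28 untested. No paired analysis was possible because the labels carry no replicate numbers shared between groups. With 2 libraries a group, genes of few counts limit what can be seen.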

Other observations

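Several other gene groups moved little or had no passing gene. Of 33 interferon response genes 24 were lower and 8 higher in irradiated knockdown libraries, with a median log2 change of -0.18, 7 lower and 1 higher at an unadjusted p under 0.05, against 4.81% and 4.05% of all tested genes. IFIT1, an antiviral effector, had 2.78 and 6.60 CPM in irradiated libraries, against 25.6 and 36.5 CPM in untreated libraries, and did not pass (log2 change -2.72, adjusted p = 0.249). Of 35 hypoxia and glycolysis genes 27 were lower, with a median of -0.19, and of 31 NRF2 targets 23 were lower, with a median of -0.15. Of 28 genes of the unfolded protein and ATF4 response 21 were lower, with a median of -0.27. SLC7A5, an amino acid transporter of that list, had 252 and 243 CPM in irradiated libraries, against 149.8 and 131 CPM in untreated libraries (log2 change 0.83).

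Of 17 replication-dependent histone genes 14 were lower, with a median of -0.64 and none passing. Of 31 matrix and mesenchymal genes 25 were higher, with a median of 0.16 and none passing. The 24 cholesterol synthesis genes were evenly divided, with a median of -0.02. Of 16 BCL2 family genes 11 were lower and none passed, with a median of -0.14. Luminal epithelial markers summed to 1971 and 2384 CPM in irradiated libraries, against 1932 and 2338 CPM in untreated libraries, and embryonic kidney markers to 71.6 and 62.5 CPM in irradiated libraries, against 38.8 and 61.4 CPM in untreated libraries.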
